A study of Mus musculus with 12 samples.

Results

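KIKO and KI CD4 T cells from mouse spleen were compared after activation, with 3 libraries from each. The comparison covers every locus with a level of at least 1 FPKM in at least 3 of these 6 libraries, a rule that takes no account of any difference between KIKO and KI. It was met by 9152 loci, of 13429 listed in the 6 libraries and of 15125 listed in the 12 libraries of the whole series. FPKM are sequenced fragments divided by transcript length and by the mapped fragments of the library. They give no read numbers, so depth is unknown. The KIKO activated libraries came from KIKO splenic T cells after 16 h with CD3/CD28 Dynabeads. These beads bind and trigger the T cell receptor complex and the co-stimulatory receptor CD28. The KI activated libraries came from KI cells given the same beads for the same time. The labels do not spell out KI or KIKO, and they give neither strain, age nor sex. All samples are labelled as splenic CD4 T cells, but the titles of the KIKO activated samples leave out CD4. KIKO naive and KI naive cells, 3 libraries each, entered only as levels beside the activated ones.

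The proteasome is a protease that degrades proteins tagged with ubiquitin. Its barrel, the 20S core, is built of rings of alpha and beta subunits, and PSMB5 is the beta subunit with the chymotrypsin-like active site. The 19S cap recognises, unfolds and feeds in the tagged protein. When a naive T cell is activated through its receptor and CD28, it grows, raises glycolysis, ribosome and lipid synthesis, and enters S phase within the first day or so. The series title names proteasome dysfunction in T cells with cell cycle disruption and apoptosis, and the comparison asks how activated KIKO cells differ from activated KI cells in these programmes.

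Several libraries stood apart from their group. The 3 KIKO activated libraries, and KI activated libraries 1 and 2, listed the Y-linked genes Ddx3y, Kdm5d, Uty and Eif2s3y and no Xist, while KI activated library 3 listed Xist at 12.2 FPKM and these 4 genes at 0. KIKO activated library 2 listed S100a9 at 92.8 FPKM, against 3.69 and 0 FPKM in the other KIKO activated libraries and 0 in every KI activated library. Over 12 myeloid markers, the summed level was 46.0, 202 and 35.9 FPKM in KIKO libraries 1, 2 and 3, against 35.5, 28.2 and 31.2 FPKM in KI libraries 1, 2 and 3, and 5, 2 and 7 markers were at 0 or had no locus in KIKO, against 8, 8 and 10 in KI. Over 8 natural killer cell markers, 7 of them with a locus, the sum was 1.62, 11.7 and 0.419 FPKM in KIKO, against 0.639, 0.220 and 0.574 FPKM in KI. Markers of CD4 T cells were listed in every library. Of 10 such markers 8 had a locus, without Trac and Trbc1. Their sum was 1005, 926 and 1187 FPKM in KIKO, against 1527, 1338 and 1442 FPKM in KI. Cd8a, which defines CD8 T cells, did not pass 0.591 FPKM in any. Over 4 CD8 markers the sum was 9.98, 10.3 and 10.8 FPKM in KIKO, against 11.8, 12.0 and 14.2 FPKM in KI. Most of it was Cd8b1, at 9.24, 8.39 and 10.0 FPKM in KIKO, against 11.1, 10.9 and 12.8 FPKM in KI. The B cell marker sum of 12.4 to 22.9 FPKM in KIKO, against 29.4 to 30.1 FPKM in KI, was mostly Cd74, whose part was the smallest in KIKO library 3, with 9.36 of 13.2 FPKM. Cd79a, which defines B cells, did not pass 2.51 FPKM. In bulk RNA, fewer cells of a type and less RNA per cell cannot be told apart. Each count of at least 2 genes of a list below that moved by over 1.5 times with both KIKO library 2 and KI library 3 left out, or with any 1 library left out, is given with that value. Counts of 0 or 1 did not pass 2 in these fits. Between libraries, correlations of log2(FPKM + 1) over all loci were 0.904 to 0.937 for a KIKO with a KI library, 0.965 to 0.98 within KIKO and 0.979 to 0.984 within KI.

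Of the 9152 loci, 3907 differed between KIKO and KI (limma on log2(FPKM + 1), two-sided, Benjamini-Hochberg adjusted p under 0.05), which is 42.7% of them. They split into 1969 higher in KIKO (21.5% of all loci) and 1938 lower in KIKO (21.2%). These shares are the background for every list below. The median log2 difference over all loci was 0.03, and 954 loci differed by at least 1 on this scale, 508 of them higher and 446 lower. The 3 KIKO values lay wholly above or below the 3 KI values at 5145 loci, or 56.2%, and at 3875 of the 3907 called. Differences below are KIKO minus KI on the log2(FPKM + 1) scale with their standard errors, which understates the change of genes of low level. Values of libraries are given for replicates 1, 2 and 3 in that order. Rescaling the libraries to an equal sum moved the median of all loci by 0.116 and the calls to 2608 higher and 1490 lower, or 63.6% higher against 50.4% without it, so small differences depend on the scaling.

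**Figure D1:**
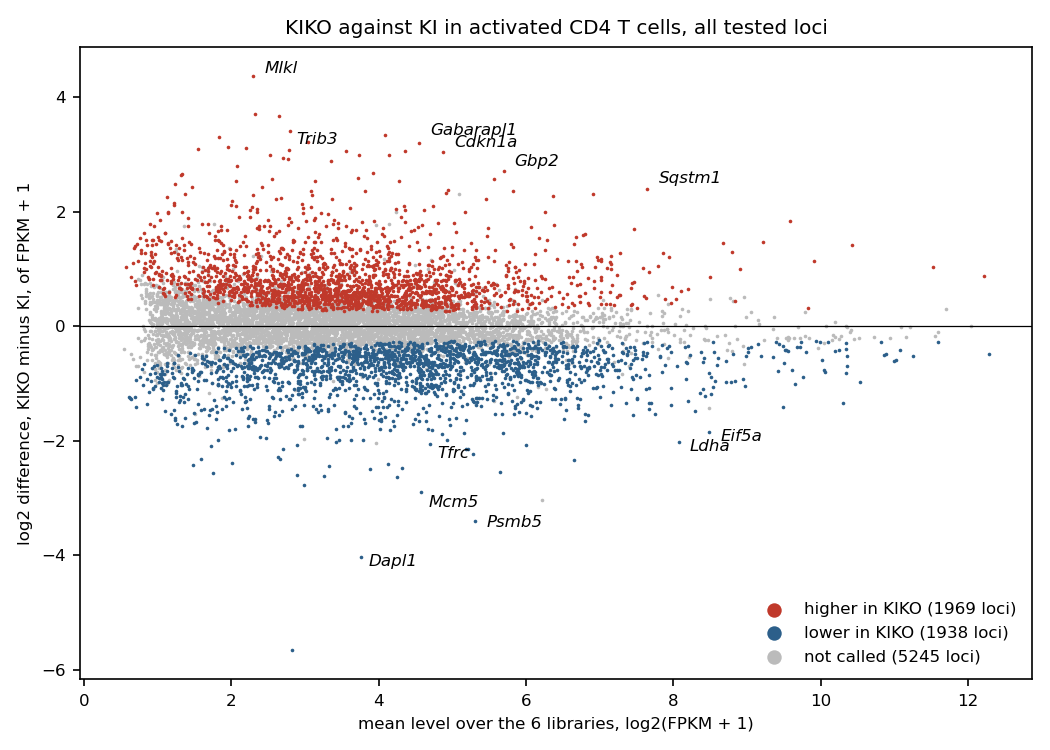
Log2 difference of FPKM + 1, KIKO minus KI, against the mean level over the 6 activated libraries on a log2 scale, 1 point per locus. Red points are the 1969 loci called higher in KIKO, blue points the 1938 called lower and grey points the rest, and both colours run through the whole range of levels.

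Genes were grouped into 49 lists by known role, and some genes sit in more than 1 list. Members were counted as higher, lower or not called. Most members were higher in KIKO in the lists of both proteasome particles, ATF4 stress genes, p53 targets and interferon-induced genes. Most were lower in the lists of the DNA replication fork, origin licensing, nucleotide supply, ribosome biogenesis and lipid synthesis.

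**Figure D2:**
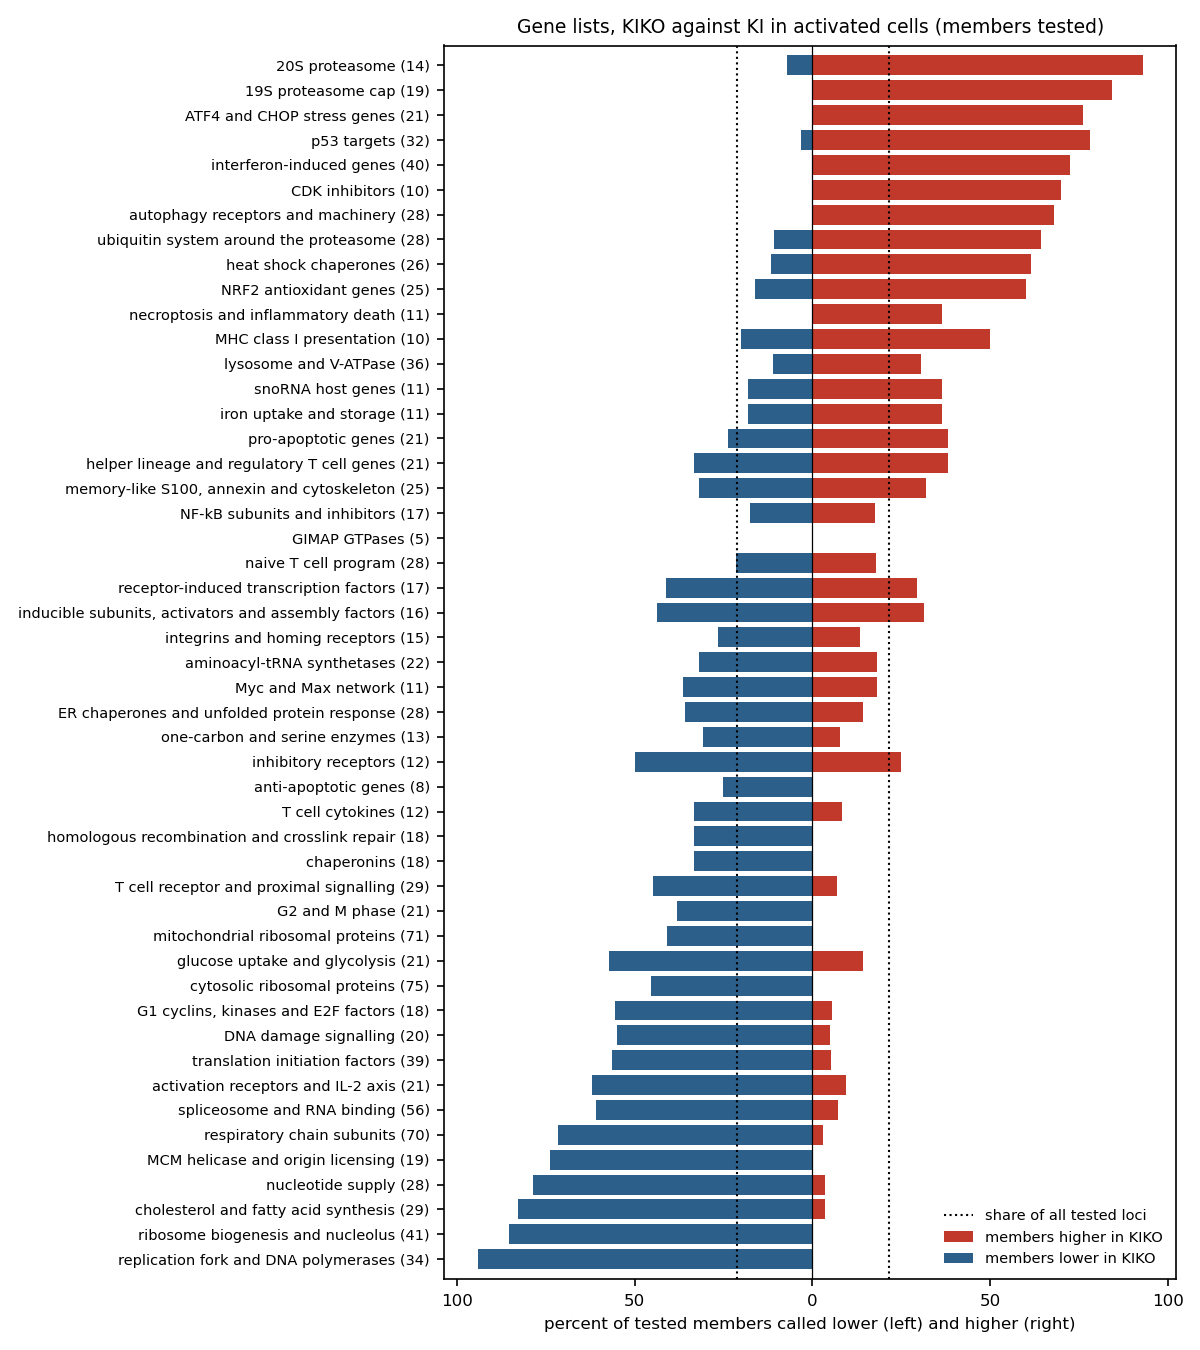
Percent of the tested members of each list called higher (red, to the right) or lower (blue, to the left) in KIKO, with the number tested in brackets and dotted lines at the shares of all loci, 21.5% and 21.2%. The 20S proteasome stands at the top, with 13 of 14 members higher, and the replication fork at the bottom, with 32 of 34 lower.

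Genes that copy DNA were lower in activated KIKO cells. Of 34 genes of the replication fork, 32 fell and none rose, with a median log2 difference of -1.27, beside 0.03 over all loci. Of 19 genes that load and fire origins, among them the MCM helicase, 14 fell and none rose, with a median of -1.33. Mcm5, a subunit of the ring helicase that unwinds DNA ahead of the fork, was at 7.52, 8.63 and 7.12 FPKM in KIKO, against 46.9, 63.0 and 89.3 FPKM in KI (log2 difference -2.90 ± 0.21, adjusted p = 0.00017). Mcm3 was at 20.2, 20.3 and 18.4 FPKM in KIKO, against 82.4, 119.8 and 174 FPKM in KI (log2 difference -2.55 ± 0.24, adjusted p = 0.00033), and Mcm7 at 23.7, 21.4 and 26.4 FPKM in KIKO, against 44.6, 57.2 and 89.8 FPKM in KI (log2 difference -1.33 ± 0.23, adjusted p = 0.0036). The KIKO libraries lay close to each other for all 3 genes, under the lowest KI library, while KI library 3 was the highest and KI library 1 the lowest of its group. Pcna, the sliding clamp of the DNA polymerases, was at 47.1, 46.9 and 41.4 FPKM in KIKO, against 90.6, 118 and 141 FPKM in KI (log2 difference -1.33 ± 0.16, adjusted p = 0.00083). Uhrf1, which brings DNA methylation to newly made strands, fell by 2.62 and its partner Dnmt1 by 1.80. Ung, which removes uracil from DNA, fell by 2.77, and the fork protection pair Tipin and Timeless by 2.47 and 1.95. The members not called were Orc2, Orc5, Gins3, Gins4 and Dbf4 of the origin genes, with differences from -0.41 to -0.21, and Gins3 was called lower without KI library 1. The call of Mcm10 (-1.74) was lost without KIKO library 1 or without KI library 2, and that of Cdc6 (-0.91) without any 1 of KIKO libraries 1 and 2 and KI libraries 2 and 3.

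The E2F factors switch on replication genes at the end of G1 through sites in their promoters. Promoters of RefSeq (GRCm38.p6), 250 bases before to 50 bases after each gene's start, were searched on both strands for the E2F letters TTTCCCGC or TTTGGCGC. They were in 40.0% of the promoters of the origin genes (6 of 15 with a promoter), 26.7% of those of the fork genes (8 of 30) and 26.7% of the G1 list (4 of 15). Shares of promoters, here and below, count genes, and a gene counts if any promoter listed for it holds the letters. Over all 27025 genes with a promoter the share was 1.80%. Among loci called lower it was 6.13%, called higher 2.40%, and not called 3.76%. Stretches of these promoters are shown for 2 helicase subunits and a polymerase that hold a match, chosen after their values were seen, with the matching letters in capitals.
Mcm5: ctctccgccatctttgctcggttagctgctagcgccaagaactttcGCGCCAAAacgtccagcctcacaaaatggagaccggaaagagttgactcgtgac
Mcm7: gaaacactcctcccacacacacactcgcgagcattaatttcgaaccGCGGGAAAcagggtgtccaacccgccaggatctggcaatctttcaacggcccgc
Pola1: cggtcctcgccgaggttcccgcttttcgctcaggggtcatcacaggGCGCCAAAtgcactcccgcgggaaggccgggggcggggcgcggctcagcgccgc
The Mcm5 stretch is at chr8:75109314-75109413 on the plus strand, the Mcm7 stretch at chr5:138171995-138172094 on the minus strand and the stretch of Pola1, the catalytic subunit of the polymerase that starts new strands, at chrX:93632240-93632339 on the minus strand. All 3 matches read as the reverse complement of the letters searched. A match is a description of letters, not a site shown to be bound. Pola1 was at 2.57, 1.99 and 3.40 FPKM in KIKO, against 5.21, 5.48 and 8.46 FPKM in KI (log2 difference -1.01 ± 0.21, adjusted p = 0.007).

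Of 28 genes that supply nucleotides, 22 fell and 1 rose, with a median of -1.01. Tk1, which salvages thymidine in S phase, was at 0.156, 1.28 and 0 FPKM in KIKO, against 5.15, 9.50 and 7.53 FPKM in KI (log2 difference -2.57 ± 0.34, adjusted p = 0.0011). Rrm1, the large subunit of ribonucleotide reductase, was at 5.27, 5.80 and 4.73 FPKM in KIKO, against 15.5, 19 and 26.6 FPKM in KI (log2 difference -1.74 ± 0.19, adjusted p = 0.00054). The groups did not overlap for Tk1 or Rrm1, and Tk1 was listed at 0 in KIKO library 3. Enzymes of purine and pyrimidine synthesis fell with them, by 1.54 for Impdh2, 1.42 for Ppat and 1.02 for Cad. Ctps2 was the member that rose, by 0.71, a call lost without KI library 2 or KI library 3. In the one-carbon pathway, which feeds both, Shmt1 fell by 1.98 and Mthfd1 by 1.25, while Mthfd2, of the mitochondrial branch, was not called (0.59) and was called higher without KIKO library 3. The 4 of 13 members of that list that fell became 2 without KIKO library 1 or 3, without KI library 2 or 3, and without both KIKO library 2 and KI library 3.

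Genes of the G1 phase fell too, 10 of 18 with 1 that rose, and a median of -0.53. Ccnd2, a D-type cyclin that drives G1, was at 36.5, 39.4 and 34.4 FPKM in KIKO, against 100.2, 106 and 114 FPKM in KI (log2 difference -1.51 ± 0.10, adjusted p = 0.00011). Its partner kinase Cdk4 was at 30.3, 34.9 and 25.3 FPKM in KIKO, against 57.2, 73.0 and 83.0 FPKM in KI (log2 difference -1.20 ± 0.17, adjusted p = 0.0014). The groups were far apart for both genes. Ccne1 and E2f1 fell by 1.46 and 1.36, while Rbl2, the pocket protein p130 of resting cells, rose by 0.72, a call lost without KI library 2 or KI library 3. Without KIKO library 2 or 3, 2 genes of this list rose. Genes of G2 and mitosis were of low level in both, such as Top2a at 2.09, 2.17 and 0.989 FPKM in KIKO, against 4.15, 7.47 and 11.5 FPKM in KI (log2 difference -1.60 ± 0.33, adjusted p = 0.0066). Of 21 such genes 8 fell and none rose, and this count was 3 without both KIKO library 2 and KI library 3, 3 without KIKO library 1 and 4 without KI library 3. Of 18 genes of homologous recombination 6 fell, and of 20 genes of DNA damage signalling 11 fell, among them Chek1 (-1.45) and Wee1 (-1.46).

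Genes that hold the cell cycle back were higher in KIKO. Of 10 CDK inhibitors and growth arrest genes 7 rose and none fell, with a median of 1.11. Cdkn1a, which encodes the CDK inhibitor p21, was at 85.2, 119 and 56.0 FPKM in KIKO, against 12.1, 9.69 and 6.73 FPKM in KI (log2 difference 3.03 ± 0.29, adjusted p = 0.00034). Gadd45g, a growth arrest and DNA damage gene, was at 8.72, 8.81 and 8.35 FPKM in KIKO, against 1.53, 1.33 and 1.23 FPKM in KI (log2 difference 2.03 ± 0.12, adjusted p = 7.5e-05). Each KIKO library was several times above the highest KI library for both genes. Tob1 rose by 1.47, Ccng1 by 1.17 and Ccng2 by 1.15. Cdkn1b, which encodes p27, was at 29.4, 17.1 and 41.7 FPKM in KIKO, against 19.6, 14.3 and 16.4 FPKM in KI and was not called (log2 difference 0.70 ± 0.29, adjusted p = 0.0858), but it was without KIKO library 2.

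Cdkn1a is also a classic target of the transcription factor p53, and 25 of 32 p53 targets rose in KIKO, with a median of 1.37 and 1 member that fell. Bbc3, which encodes the BH3-only protein PUMA, was at 41.8, 42.5 and 38.8 FPKM in KIKO, against 14.5, 10.7 and 10.3 FPKM in KI (log2 difference 1.73 ± 0.14, adjusted p = 0.00021). Plk2 was at 26.3, 34.2 and 15.5 FPKM in KIKO, against 1.95, 1.77 and 1.44 FPKM in KI (log2 difference 3.21 ± 0.26, adjusted p = 0.00021), and Gtse1, a regulator of p53, at 60.0, 71.5 and 34.7 FPKM in KIKO, against 4.60, 3.99 and 4.41 FPKM in KI (log2 difference 3.34 ± 0.24, adjusted p = 0.00017). In all 3 genes every KIKO library was above every KI library, and KIKO library 3 was the lowest KIKO library. Mdm2, the ligase that degrades p53, rose by 1.71. Sesn2, a stress sensor that restrains mTORC1, rose by 2.99, and Phlda3 and Ddit4, which restrain AKT and mTORC1, rose by 1.80 and 1.47. The repair genes Ercc5 and Polk rose by 1.09 and 1.79, and Xpc by 0.44, a call lost without KIKO library 1, KI library 2 or KI library 3. Ddb2, Sesn1, Aen, Tigar, Rps27l and Rrm2b were not called, with differences from -0.65 to 0.53. Of these, Ddb2 and Sesn1 were called higher without KIKO library 2, Rps27l higher without KIKO library 3, and Rrm2b lower without KIKO library 1. Trp53, which encodes p53 itself, was lower, at 72.1, 81.8 and 64.4 FPKM in KIKO, against 101, 95.2 and 103 FPKM in KI (log2 difference -0.46 ± 0.11, adjusted p = 0.0128), a call lost under quantile normalization.

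Death genes moved on both sides, but the shares of pro-apoptotic and anti-apoptotic genes that fell were near the 21.2% of all loci. Pmaip1, which encodes the BH3-only protein NOXA, was at 17.6, 20.7 and 15.0 FPKM in KIKO, against 1.72, 1.69 and 1.10 FPKM in KI (log2 difference 2.91 ± 0.16, adjusted p = 7e-05). Fas, a death receptor, was at 53.3, 65.0 and 45.4 FPKM in KIKO, against 14.2, 12.6 and 9.49 FPKM in KI (log2 difference 2.09 ± 0.18, adjusted p = 0.00025), and Apaf1, the scaffold of the apoptosome, at 17.6, 19.1 and 14.2 FPKM in KIKO, against 5.37, 4.16 and 3.54 FPKM in KI (log2 difference 1.75 ± 0.16, adjusted p = 0.00032). None of the 3 had overlapping groups. Tnfrsf10b rose by 1.56 and Bcl2l11 (BIM) by 1.10. These are among 8 of 21 pro-apoptotic genes that rose, beside 5 that fell, or 3 without KIKO library 2, KI library 2, KI library 3 or the first and last of these together. Those that fell include Cycs (-0.93), Aifm1 (-0.86) and Endog (-1.22), all mitochondrial proteins. Of 8 anti-apoptotic genes 2 fell and none rose, and 1 fell without KIKO library 1 or without both KIKO library 2 and KI library 3. Bcl2l1, which encodes the survival protein BCL-XL, was at 28.3, 30.0 and 18.2 FPKM in KIKO, against 52.4, 66.4 and 64.6 FPKM in KI (log2 difference -1.25 ± 0.19, adjusted p = 0.0021), with every KIKO library under every KI library. Mcl1, which encodes another survival protein, was not called (0.15), and neither was the initiator caspase Casp9 (0.26). Of 11 genes of necroptosis and inflammatory death 4 rose and none fell, with a median of 0.19. Mlkl, which encodes the pore-forming executor of necroptosis, had the largest rise of all loci, at 20.1, 26.6 and 18.1 FPKM in KIKO, against 0, 0 and 0.256 FPKM in KI (log2 difference 4.37 ± 0.17, adjusted p = 4.3e-05). It was nearly unlisted in KI. Its upstream kinase Ripk3 was at 21.7, 18.8 and 16.9 FPKM in KIKO, against 15.3, 14.1 and 12.0 FPKM in KI (log2 difference 0.45 ± 0.13, adjusted p = 0.0273), a call lost without KIKO library 1, KI library 2 or KI library 3.

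Most genes of the proteasome's 20S core and 19S cap rose. Of 14 subunits of the 20S core 13 rose and Psmb5 fell, and of 19 subunits of the 19S cap 16 rose and none fell. The medians were 0.78 and 1.12. The 20S count was 8 without both KIKO library 2 and KI library 3. Psmb5 was at 7.99, 35.5 and 4.47 FPKM in KIKO, against 117, 126 and 143 FPKM in KI (log2 difference -3.41 ± 0.60, adjusted p = 0.0036). It was low in every KIKO library, but KIKO library 2 kept several times more than KIKO libraries 1 and 3. Its locus lies on chromosome 14, 54822121 to 54855479 on the minus strand (GRCm39), and is listed in the files under the name of Mir686, with exon lengths that match Psmb5.

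Psma1, an alpha ring subunit, was at 245, 275 and 206 FPKM in KIKO, against 94.7, 100.1 and 101 FPKM in KI (log2 difference 1.28 ± 0.12, adjusted p = 0.00032). The ATPase subunit Psmc6, which unfolds substrates in the 19S base, was at 183, 194 and 149 FPKM in KIKO, against 54.2, 60.0 and 62.0 FPKM in KI (log2 difference 1.56 ± 0.12, adjusted p = 0.00021). Psmd4, a receptor for ubiquitin chains, was at 726, 806 and 526 FPKM in KIKO, against 234, 283 and 225 FPKM in KI (log2 difference 1.45 ± 0.17, adjusted p = 0.00075). For these 3 subunits KIKO library 2 was the highest and library 3 the lowest of the KIKO group, and all lay above the KI group. The rises of the 20S subunits ran from 0.37 for Psma2 to 1.28 for Psma1, and those of the 19S subunits from 0.52 for Psmd7 to 1.56 for Psmc6. The 19S subunits Sem1, Psmd8 and Psmd13 were not called (-0.18, -0.10 and 0.17). The calls of Psma2 and Psma6 (0.38) were lost without KIKO library 1 and in other alternatives, 9 in all for Psma6, and Psmc2 (1.15) turned to -0.16 when transcript starts alone were summed.

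The inducible subunits and the proteasome's partners were split. Of 16 genes 5 rose and 7 fell, with a median of -0.18. The 7 became 4 without KIKO library 1, KIKO library 3 or KI library 1 and without both KIKO library 2 and KI library 3, and 3 without KI library 2 or KI library 3. Psmb8, the interferon-inducible subunit that takes the place of PSMB5 in the immunoproteasome, was at 63.4, 50.4 and 66.7 FPKM in KIKO, against 16.1, 15.2 and 18.2 FPKM in KI (log2 difference 1.80 ± 0.13, adjusted p = 0.00017), with no overlap. Psmb9 rose by 0.73, a call lost without KIKO library 3, KI library 1 or KI library 2, and Psmb10 was not called (-0.20). The assembly chaperone Psmg2 fell by 0.98 and the activator Psme3 by 0.97, while the maturation protein Pomp was not called (0.13). Psme4, an activator cap, rose by 0.81, and Ecpas, a proteasome adaptor, by 1.19. Nfe2l1, the transcription factor that raises proteasome genes when proteasomes fail, was at 28.0, 32.6 and 22.2 FPKM in KIKO, against 17.8, 19.6 and 19.1 FPKM in KI (log2 difference 0.51 ± 0.14, adjusted p = 0.023), a call lost without KIKO library 1 or 2 or any 1 KI library.

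Antioxidant response elements, the sites through which NFE2L1 and its relative NRF2 act, were searched as TGACNNNGC. They were in 25.0% of the promoters of the 19S list (4 of 16 with a promoter) and 18.2% of those of the 20S list (2 of 11), against 14.0% of all promoters, and 19.3% of loci called higher, so the shares stand close to the background. Stretches are shown for 2 subunits of the 19S cap that rose and hold a match.
Psmc6: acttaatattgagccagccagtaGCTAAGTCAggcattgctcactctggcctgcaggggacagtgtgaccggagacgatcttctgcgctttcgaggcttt
Adrm1: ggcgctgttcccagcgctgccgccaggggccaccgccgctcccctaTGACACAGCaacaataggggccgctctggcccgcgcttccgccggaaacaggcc
The Psmc6 stretch is at chr14:45329574-45329673 on the plus strand, and the Adrm1 stretch at chr2:180171380-180171479 on the plus strand. Adrm1, a ubiquitin receptor of the cap, was at 197, 200.4 and 168 FPKM in KIKO, against 76.8, 84.3 and 81.7 FPKM in KI (log2 difference 1.21 ± 0.10, adjusted p = 0.00025).

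Genes that make, carry and open ubiquitin chains rose in part, 18 of 28, with 3 that fell and a median of 0.42. The 18 became 11 without KI library 2, where 1 fell, and 11 without both KIKO library 2 and KI library 3. Zfand2a and Zfand5, which encode zinc finger proteins that bind the 26S proteasome or ubiquitin, rose by 2.53 and 2.02. The VCP segregase pulls tagged proteins out of complexes and membranes. Its cofactor gene Nploc4 was at 58.1, 67.2 and 48.2 FPKM in KIKO, against 17.2, 18.5 and 17.4 FPKM in KI (log2 difference 1.64 ± 0.13, adjusted p = 0.00021), and Ufd1, the partner, at 74.0, 81.3 and 70.2 FPKM in KIKO, against 32.4, 27.8 and 27.9 FPKM in KI (log2 difference 1.33 ± 0.11, adjusted p = 0.00021). The groups did not overlap in either gene. Usp14, a deubiquitinase on the 19S cap, rose by 1.26. The other deubiquitinase of the cap, Uchl5, fell by 0.86. Ubb, a polyubiquitin gene, was higher by 1.41, but it has near-identical copies, so its value is uncertain. Rps27a, which encodes ubiquitin fused to a ribosomal protein, fell by 1.01, a call lost without KI library 2 and under quantile normalization.

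Autophagy, the other route of protein disposal, rose in 19 of 28 genes with none lower and a median of 0.68. Sqstm1, which encodes the receptor p62 that binds ubiquitin and LC3, was at 461, 523 and 400.0 FPKM in KIKO, against 100.4, 80.0 and 80.7 FPKM in KI (log2 difference 2.39 ± 0.14, adjusted p = 7.5e-05). Gabarapl1, an LC3-like protein, was at 68.6, 85.2 and 57.8 FPKM in KIKO, against 6.90, 7.06 and 6.34 FPKM in KI (log2 difference 3.19 ± 0.15, adjusted p = 4.7e-05). Every KIKO library was several times above the highest KI library for both. Other receptors rose too, Tax1bp1 by 1.43 and Nbr1 by 1.13, and so did Rb1cc1 of the starting complex (1.09). The core genes Atg3, Atg5, Atg7 and Becn1 were not called, with differences from -0.24 to 0.18. Of 36 lysosomal genes 11 rose and 4 fell. Ctsd, the aspartyl protease cathepsin D, was at 121, 125 and 116 FPKM in KIKO, against 35.9, 32.1 and 39.5 FPKM in KI (log2 difference 1.73 ± 0.10, adjusted p = 9.7e-05). Their E-box letters CACGTG were in 40.7% of the lysosomal promoters (11 of 27), against 8.09% of all promoters, 11.9% of loci called higher and 15.5% of loci called lower.

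Genes of the integrated stress response were higher in KIKO. The response acts through phosphorylated eIF2alpha and the transcription factors ATF4 and CHOP. Of 21 genes of this list 16 rose and none fell, with a median of 1.43. Atf4 was at 281, 333 and 217 FPKM in KIKO, against 129, 137 and 139.7 FPKM in KI (log2 difference 1.01 ± 0.15, adjusted p = 0.002), and Ddit3, which encodes CHOP, at 36.8, 26.3 and 38.9 FPKM in KIKO, against 13.2, 12.3 and 11.0 FPKM in KI (log2 difference 1.40 ± 0.16, adjusted p = 0.00064). Trib3, a pseudokinase that both factors induce, was at 18.7, 24.6 and 14.9 FPKM in KIKO, against 1.61, 0.966 and 1.62 FPKM in KI (log2 difference 3.08 ± 0.20, adjusted p = 0.00011). None of these 3 genes had overlapping groups. Asns, which makes asparagine, was at 7.85, 17.7 and 5.66 FPKM in KIKO, against 1.68, 1.13 and 1.76 FPKM in KI (log2 difference 2.04 ± 0.35, adjusted p = 0.0032), and KIKO library 2 was the highest by far. Slc7a11, the cystine transporter, was at 2.44, 6.92 and 1.25 FPKM in KIKO and listed at 0 in all 3 KI libraries. Eif4ebp1 rose by 2.53, Gpt2 by 1.75, Atf3 by 1.61, Atf5 by 1.31 and Slc3a2 by 1.60. Of 22 aminoacyl-tRNA synthetase genes, which ATF4 also induces in many cells, 4 rose and 7 fell, with a median of -0.24, and the 4 became 1 or 2 without any 1 library other than KIKO library 3, and 1 without both KIKO library 2 and KI library 3. Among them were Vars (-1.27) and, on the higher side, Nars (0.85), whose call was lost when transcript starts alone were summed.

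The ATF4 letters TGATGNAA were in 33.3% of the promoters of the ATF4 list (6 of 18 with a promoter) and in 35.7% of those of the synthetase list (5 of 14), against 4.51% of all promoters, 3.31% of loci called higher and 1.86% of loci called lower. Stretches are shown for an amino acid enzyme and a transporter that rose and hold a match.
Asns: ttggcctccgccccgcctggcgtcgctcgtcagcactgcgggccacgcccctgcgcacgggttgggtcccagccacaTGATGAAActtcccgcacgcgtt
Slc7a11: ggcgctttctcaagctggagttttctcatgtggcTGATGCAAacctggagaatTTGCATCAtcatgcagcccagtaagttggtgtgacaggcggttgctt
The Asns stretch is at chr6:7693210-7693309 on the minus strand, and the Slc7a11 stretch, which holds 2 matches on opposite strands, at chr3:50443614-50443713 on the minus strand.

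Heat shock chaperones of the cytosol rose in 16 of 26 genes, with 3 lower and a median of 0.73. The 3 became 1 without KIKO library 1 or 3, without KI library 2 or 3, and without both KIKO library 2 and KI library 3. Dnajb2, a co-chaperone that passes clients to the proteasome, was at 40.6, 47.4 and 36.3 FPKM in KIKO, against 9.35, 8.80 and 8.41 FPKM in KI (log2 difference 2.10 ± 0.12, adjusted p = 7.5e-05). Bag3, which links HSP70 clients to autophagy, was at 16.7, 24.4 and 15.5 FPKM in KIKO, against 3.81, 3.70 and 4.60 FPKM in KI (log2 difference 1.96 ± 0.17, adjusted p = 0.0003). Dnajb1 was at 63.8, 71.3 and 51.9 FPKM in KIKO, against 22.7, 20.7 and 22.6 FPKM in KI (log2 difference 1.45 ± 0.13, adjusted p = 0.00031). KIKO library 2 was the highest for all 3 genes, and no KI library came near. The abundant Hspa8 and Hsp90aa1 rose by 1.04 and 1.13. Hsf1, the master factor of the heat shock response, was not called (0.09), and Hsf2 rose by 1.33. The heat shock element, searched as 3 alternating GAA and TTC units spaced by 2 bases, was in 13.6% of the list's promoters (3 of 22), against 0.662% of all promoters. Of 18 genes of the chaperonins, which fold actin and tubulin, and their relatives, none rose and 6 fell. The 6 became 2 without KI library 2, 3 without KI library 3 and 2 without both KIKO library 2 and KI library 3.

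Chaperones and sensors of the endoplasmic reticulum had more members lower than higher. Of 28 genes 4 rose and 10 fell, with a median of -0.30. Without KI library 3 the counts were 2 and 5, without both it and KIKO library 2 they were 1 and 6, and 1 rose without KI library 2. Sdf2l1 was at 6.84, 6.69 and 4.52 FPKM in KIKO, against 21.5, 24.3 and 35.2 FPKM in KI (log2 difference -1.98 ± 0.21, adjusted p = 0.00051). P4hb and Pdia4, which form disulfide bonds, fell by 0.57 and 0.48. Hspa5, which encodes the major ER chaperone BiP, was at 149.5, 190.2 and 108 FPKM in KIKO, against 189, 204 and 214 FPKM in KI and was not called (log2 difference -0.47 ± 0.19, adjusted p = 0.0804), though it was called lower without KIKO library 2. The groups overlapped for Hspa5 but not for Sdf2l1. Dnajb9, a BiP cofactor, rose by 1.06. Eif2ak3, which encodes the sensor kinase PERK, rose by 0.45, and that call was lost without KI library 2 or KI library 3.

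Antioxidant genes that NRF2 controls rose in 15 of 25, with 4 lower and a median of 0.67. The 4 became 2 without KI library 1, 1 without KI library 3 and 2 without both KIKO library 2 and KI library 3. Srxn1, which repairs peroxiredoxins, was at 8.41, 19.6 and 6.05 FPKM in KIKO, against 0, 0.953 and 1.10 FPKM in KI (log2 difference 2.79 ± 0.43, adjusted p = 0.0021). Nqo1, a quinone reductase, was at 6.88, 8.59 and 6.47 FPKM in KIKO, against 1.62, 1.27 and 0.834 FPKM in KI (log2 difference 1.90 ± 0.17, adjusted p = 0.00032). Gclm, for glutathione synthesis, was at 19.4, 23.7 and 14.7 FPKM in KIKO, against 4.11, 4.45 and 5.05 FPKM in KI (log2 difference 1.85 ± 0.17, adjusted p = 0.00032). The groups did not overlap, and for Srxn1 KIKO library 2 had more than the other 2 KIKO libraries together. Hmox1 rose by 2.09, Sod1 by 1.29, Fth1 by 0.99, Cat by 0.88 and Nfe2l2, which encodes NRF2, by 0.98. The glutathione peroxidase Gpx1 fell by 1.04. The letters TGACNNNGC were in 45.5% of the promoters of this list (10 of 22), against 14.0% of all promoters and 19.3% of loci called higher. Of 11 genes of iron handling 4 rose and 2 fell. Aco1, which doubles as an iron sensor, fell by 0.55.

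Growth genes were lower in KIKO. Of 41 genes of ribosome biogenesis 35 fell and none rose, with a median of -0.87. Nhp2, of the snoRNPs that modify rRNA, was at 59.4, 56.8 and 39.5 FPKM in KIKO, against 133, 165 and 187 FPKM in KI (log2 difference -1.63 ± 0.18, adjusted p = 0.00066). Nop56, of the other class of snoRNPs, was at 110.0, 122 and 77.1 FPKM in KIKO, against 218, 286 and 282 FPKM in KI (log2 difference -1.35 ± 0.19, adjusted p = 0.0014). Npm1, the abundant nucleolar chaperone, was at 865, 896 and 672 FPKM in KIKO, against 1187, 1443 and 1600.0 FPKM in KI (log2 difference -0.80 ± 0.15, adjusted p = 0.0047). KIKO library 3 was the lowest for all 3 genes, and the groups were apart. The letters CACGTG, an E-box that MYC can bind, were in 24.3% of the promoters of this list (9 of 37), against 15.5% of all loci called lower. Of 75 cytosolic ribosomal protein genes 34 fell and none rose, with a median of -0.27. That count was 17 without both KIKO library 2 and KI library 3, 21 without KI library 2, 22 after rescaling to an equal sum and 10 under quantile normalization, where the median was 0.00. Many of these genes have processed pseudogenes that can share reads. Of 71 mitochondrial ribosomal proteins 29 fell and none rose, with a median of -0.37.

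Of 39 translation initiation factors 22 fell and 2 rose, with a median of -0.44, and 14 fell without KI library 2. Eif5a, whose protein carries hypusine, was at 194, 219 and 158 FPKM in KIKO, against 554, 703 and 807 FPKM in KI (log2 difference -1.85 ± 0.17, adjusted p = 0.00032). Eif4a1, the helicase of the cap complex, fell by 1.07. Eif1 and Eif5 were the members that rose, by 0.49 and 0.54, and the call of Eif5 was lost without KIKO library 1, KIKO library 2 or KI library 3. Of 56 spliceosome and RNA-binding genes 34 fell and 4 rose, and those that rose were Snrpd3 (1.51), Clk1 (0.83), Clk4 (0.79) and Prpf6 (0.36). The call of Prpf6 was lost without KIKO library 1, KIKO library 2 or KI library 2. Of 11 host genes of snoRNAs 4 rose and 2 fell, among them Gas5 (0.65) and Snhg12 (0.74), both higher. The 2 that fell became 1 without any 1 library other than KIKO library 3, and without both KIKO library 2 and KI library 3.

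Ldha, which turns pyruvate into lactate, was at 148, 141 and 111 FPKM in KIKO, against 463, 566 and 612 FPKM in KI (log2 difference -2.03 ± 0.15, adjusted p = 0.00017). Its sister gene Ldhb went the other way, at 85.6, 79.5 and 63.3 FPKM in KIKO, against 24.4, 23.4 and 26.1 FPKM in KI (log2 difference 1.58 ± 0.13, adjusted p = 0.00021). Neither had overlapping groups. Of 21 genes of glucose uptake and glycolysis 12 fell and 3 rose, with a median of -0.50. Hk2, the inducible hexokinase, fell by 1.93, Pgam1 by 1.57, the lactate carrier Slc16a1 by 1.51 and Eno1 by 0.93, while Gpi1 rose by 0.50. Gapdh, a gene with many pseudogenes, ranged from 13.7 to 183 FPKM over the 6 libraries and was not called. Of 70 subunits of the respiratory chain 50 fell and 2 rose, with a median of -0.46, and 31 fell without both KIKO library 2 and KI library 3. The 2 that rose became 1 in that fit and without any 1 library other than KIKO library 2. Cox7a2l, a factor of respiratory supercomplexes, was the clearer of the pair that rose, at 162, 126 and 180.0 FPKM in KIKO, against 75.5, 64.5 and 84.4 FPKM in KI (log2 difference 1.04 ± 0.16, adjusted p = 0.0019).

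Lipid synthesis fell in 24 of 29 genes, with 1 that rose and a median of -0.89. Hmgcs1, at the head of the sterol pathway, was at 19.7, 18.1 and 16.1 FPKM in KIKO, against 45.8, 54.8 and 72.6 FPKM in KI (log2 difference -1.61 ± 0.17, adjusted p = 0.00053). Idi1, further down, was at 16.7, 16.3 and 10.7 FPKM in KIKO, against 53.4, 60.2 and 66.3 FPKM in KI (log2 difference -1.99 ± 0.17, adjusted p = 0.00028), and Fasn, the fatty acid synthase, at 9.90, 9.27 and 8.78 FPKM in KIKO, against 25.9, 34.0 and 35.0 FPKM in KI (log2 difference -1.65 ± 0.13, adjusted p = 0.00021). All KIKO libraries lay under all KI libraries in these 3 genes. Sqle, Cyp51 and Lss fell by 1.57 to 1.66. Srebf1, which encodes a factor that drives these genes, was the member that rose (0.36), a call lost without KIKO library 1, KIKO library 2, KI library 2 or KI library 3. The sterol response letters TCACNCCAC were in 1 of 21 promoters of this list (4.76%), against 1.44% of all promoters, a share that says nothing of the factor's binding.

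**Figure D3:**
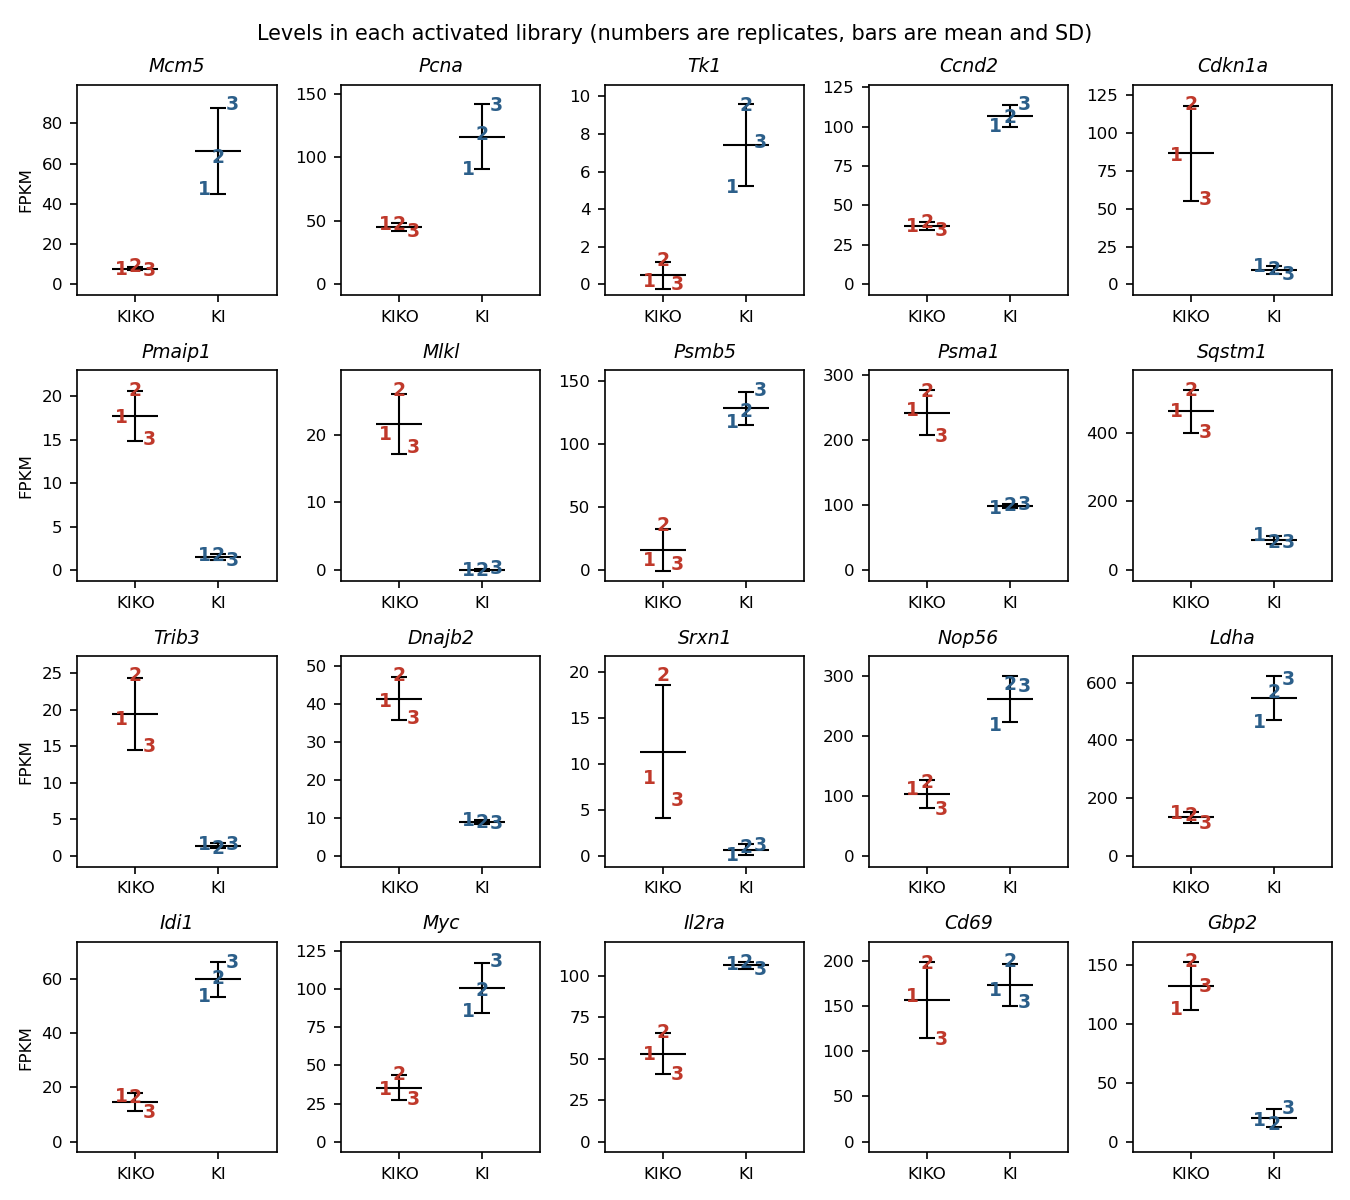
FPKM of 20 genes in each activated library, with KIKO on the left and KI on the right, digits for replicates and bars for the mean and SD of 3 libraries. The groups do not overlap in 19 of the genes, and Cd69 is the exception, at 113 to 197 FPKM in KIKO and 154 to 199 FPKM in KI. All genes drawn but Cd69 were called, so this count follows largely from their choice. Over all loci the groups were apart at 56.2%.

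Myc, the driver of growth after T cell activation, was at 34.4, 44.2 and 27.6 FPKM in KIKO, against 85.3, 99.0 and 118 FPKM in KI (log2 difference -1.50 ± 0.19, adjusted p = 0.00093). Among its targets of polyamine synthesis, Odc1 fell by 1.37 and Srm fell by 1.87. Whether the lower Myc level had a part in these falls was not tested. Of 11 genes of the Myc and Max network 4 fell and 2 rose, Mxi1 (0.69) and Mnt (0.41), both antagonists of MYC. The call of Mnt was lost without KIKO library 1 or 3 or KI library 1 or 2. The receptors of activated T cells were mixed. Of 21 genes 13 fell and 2 rose, with a median of -0.70. Cd69, an early activation marker, was at 161, 197 and 113 FPKM in KIKO, against 167, 199 and 154 FPKM in KI and was not called (log2 difference -0.17 ± 0.20, adjusted p = 0.527). The groups overlapped. Il2ra, the high-affinity chain of the IL-2 receptor, was at 52.6, 65.9 and 40.7 FPKM in KIKO, against 107, 108 and 104 FPKM in KI (log2 difference -1.01 ± 0.16, adjusted p = 0.0025). Tfrc, the transferrin receptor of growing cells, was at 13.2, 14.0 and 8.67 FPKM in KIKO, against 41.5, 58.0 and 57.3 FPKM in KI (log2 difference -2.05 ± 0.20, adjusted p = 0.0004). No KIKO library reached a KI library for these 2 genes. Il2rb and Il2rg fell by 0.70 and 0.88, Cd28 by 0.74 and the co-stimulatory receptor Tnfrsf9 by 1.34. The adhesion receptor Cd44 rose by 1.05, a call lost without both KIKO library 2 and KI library 3.

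Transcription factors induced by the receptor split, with 5 of 17 higher and 7 lower, and the 5 became 1 to 3 without any 1 library other than KIKO library 3, and 2 without both KIKO library 2 and KI library 3. Egr3 was at 6.71, 5.74 and 8.21 FPKM in KIKO, against 17.4, 21.5 and 20.2 FPKM in KI (log2 difference -1.40 ± 0.14, adjusted p = 0.00044), and Bhlhe40 at 18.0, 23.6 and 9.91 FPKM in KIKO, against 52.1, 56.3 and 60.4 FPKM in KI (log2 difference -1.73 ± 0.27, adjusted p = 0.0021). Fosl1, an AP-1 subunit, was at 34.2, 34.7 and 8.10 FPKM in KIKO, against 0.867, 1.41 and 1.15 FPKM in KI (log2 difference 3.40 ± 0.49, adjusted p = 0.0016). Fosl1 was high in KIKO libraries 1 and 2 and lower in library 3, which was still above KI. Batf and Nr4a3 fell by 0.65 and 0.78. Of 17 NF-kB genes 3 rose and 3 fell, shares under the background, and 1 rose without KIKO library 1 or 2 or KI library 2 or 3. Without both KIKO library 2 and KI library 3, none rose and 4 fell. Of 12 cytokines 4 fell, Lta (-2.03, a call lost when transcript starts alone were summed), Tnfsf11 (-1.64), Tnf (-1.25) and Tgfb1 (-0.78). Ccl5 was the member that rose, at 1.03, 6.54 and 2.49 FPKM in KIKO, against 0, 0 and 0.845 FPKM in KI (log2 difference 1.62 ± 0.48, adjusted p = 0.0286), with the most in KIKO library 2, and the call was lost without that library, KIKO library 3, KI library 1 or KI library 2.

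The T cell receptor and its signalling genes were lower in 13 of 29, with 2 higher and a median of -0.27, and 8 were lower without both KIKO library 2 and KI library 3. Lck, the kinase that starts the signal, was at 78.8, 68.4 and 99.9 FPKM in KIKO, against 169.6, 179 and 171 FPKM in KI (log2 difference -1.08 ± 0.14, adjusted p = 0.0011). Cd3g, a chain of the receptor complex, was at 163, 127 and 244 FPKM in KIKO, against 395, 348 and 349 FPKM in KI (log2 difference -1.08 ± 0.22, adjusted p = 0.006). For both genes KIKO library 3 was the nearest to KI. Cd4 was at 96.2, 86.4 and 138 FPKM in KIKO, against 182, 171 and 182 FPKM in KI (log2 difference -0.76 ± 0.17, adjusted p = 0.0089). Its call was lost without both KIKO library 2 and KI library 3, and the sum of transcript starts alone gave a difference of 4.50, so it depends on how the level is built. Cd247, the zeta chain, was not called (-0.17). Ptpn6, a phosphatase that dampens the signal, fell by 1.34, while Ptpn22 rose by 0.95. Of 12 inhibitory receptors 6 fell, with Ctla4 (-1.82), Lag3 (-1.16) and Btla (-0.75) among them, and 3 rose, Tigit (1.02), Nt5e (1.01) and Vsir (0.42). The call of Vsir was lost without KI library 2, and that of Tigit in a fit on all 12 libraries. Cd226, an activating receptor in the same list, fell by 2.15.

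Genes of naive T cells showed no common direction, with 5 of 28 higher, 6 lower and a median of 0.09. Without KIKO library 2, 8 were higher, without KI library 2, 3, and without KIKO library 3, 3 were higher and 10 lower with a median of -0.05. Among loci of at least 10 FPKM in a group with a checked gene name, Dapl1 had the largest fall, at 1.22, 1.23 and 6.57 FPKM in KIKO, against 54.8, 50.8 and 55.4 FPKM in KI (log2 difference -4.03 ± 0.43, adjusted p = 0.00057), and KIKO library 3 kept more than libraries 1 and 2. Its locus has no gene name in the files and was matched by exon lengths. Ccr7, the homing receptor for lymph nodes, was at 134, 124 and 141 FPKM in KIKO, against 279, 242 and 203 FPKM in KI (log2 difference -0.85 ± 0.13, adjusted p = 0.0021). Il7r, the receptor for the survival cytokine IL-7, was at 43.3, 11.3 and 63.5 FPKM in KIKO, against 7.34, 4.59 and 17.2 FPKM in KI and was not called (log2 difference 1.79 ± 0.64, adjusted p = 0.0553). Il7r was called in 7 alternatives, among them those without KIKO library 2 and without KI library 3. Of 21 genes of helper lineages and regulatory T cells 8 rose and 7 fell. Tbx21, which encodes T-bet, was at 3.32, 4.97 and 2.25 FPKM in KIKO, against 0, 0 and 0.380 FPKM in KI (log2 difference 1.97 ± 0.27, adjusted p = 0.0013). Foxp3, of regulatory T cells, was at 7.36, 6.13 and 6.81 FPKM in KIKO, against 12.3, 13.5 and 8.91 FPKM in KI (log2 difference -0.68 ± 0.16, adjusted p = 0.0106), and Izumo1r, which encodes folate receptor 4, a surface marker of regulatory and anergic T cells, at 5.84, 4.23 and 5.73 FPKM in KIKO, against 35.2, 36.8 and 30.7 FPKM in KI (log2 difference -2.50 ± 0.14, adjusted p = 7e-05). The groups did not overlap in these 3 genes. Bcl6 and Runx1 rose by 1.06 and 0.96. None of the 5 GIMAP genes of lymphocyte survival was called.

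In a list of 25 cytoskeleton, annexin and S100 genes 8 rose and 8 fell, with actin genes among those that fell. The 8 that rose became 4 without KIKO library 1, KI library 2 or both KIKO library 2 and KI library 3, and 5 without KI library 3. Actb was at 1129, 1055 and 1005 FPKM in KIKO, against 2048, 2103 and 2104 FPKM in KI (log2 difference -0.97 ± 0.08, adjusted p = 0.00025), and Pfn1, which feeds actin monomers to filaments, at 455, 421 and 439.5 FPKM in KIKO, against 1135, 1196 and 1171 FPKM in KI (log2 difference -1.41 ± 0.08, adjusted p = 7.5e-05). Cfl1, Coro1a and Tagln2 fell by 0.98, 0.93 and 1.28. Of 15 integrins and homing receptors 2 rose and 4 fell, among them Itgal (-1.04) and Itgb2 (-0.94), which form LFA-1. The 2 that rose became 1 without KI library 3 and 0 without both it and KIKO library 2. Thy1, a surface protein of T cells, was at 18.9, 7.90 and 29.9 FPKM in KIKO, against 69.4, 75.2 and 86.6 FPKM in KI (log2 difference -2.14 ± 0.39, adjusted p = 0.0043), with KIKO library 2 the lowest. The groups were apart in each of these genes.

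Genes induced by interferon were higher, 29 of 40 with none lower and a median of 1.02. Irf1, a transcription factor that interferon induces early, was at 55.7, 76.4 and 83.5 FPKM in KIKO, against 15.9, 13.3 and 22.8 FPKM in KI (log2 difference 2.00 ± 0.22, adjusted p = 0.00057). Gbp2, a guanylate-binding protein, was at 112, 153 and 132 FPKM in KIKO, against 17.8, 14.2 and 28.3 FPKM in KI (log2 difference 2.70 ± 0.24, adjusted p = 0.00027). No KI library reached a KIKO library in these genes, and KIKO library 1 was the lowest of its group. Iigp1, an immunity-related GTPase, was at 17.8, 24.0 and 22.7 FPKM in KIKO, against 0.369, 0.636 and 1.48 FPKM in KI (log2 difference 3.66 ± 0.23, adjusted p = 9.9e-05). Ly6a, which encodes Sca-1, was at 43.3, 50.8 and 51.6 FPKM in KIKO, against 5.19, 3.21 and 8.33 FPKM in KI (log2 difference 2.99 ± 0.26, adjusted p = 0.00027). Irgm1 rose by 2.59, Igtp by 1.99 and Tap1, of the peptide transporter, by 1.38. Genes best known from type I interferon responses were among those that missed the filter. Rsad2 was at 1.60, 1.12 and 0.916 FPKM in KIKO and listed at 0 in KI, and Isg15 was listed at 0 in all 6 libraries. Ifng itself, also under the filter, was at 0.722, 3.84 and 1.89 FPKM in KIKO and listed at 0 in KI. Its highest value was in KIKO library 2, which also listed natural killer cell markers, and their part in it was not tested. Without KIKO library 2, 29 of 40 members of the interferon list were higher, a count that does not show the source of Ifng.

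Presentation on MHC class I rose in 5 of 10 genes, with 2 lower, and 3 rose and 1 fell without KIKO library 1, KIKO library 3, KI library 2, KI library 3 or both KIKO library 2 and KI library 3. Nlrc5, the transactivator of class I genes, was at 18.6, 21 and 21.9 FPKM in KIKO, against 10.4, 10.4 and 8.85 FPKM in KI (log2 difference 0.98 ± 0.11, adjusted p = 0.00063). The class I heavy chains H2-K1 and H2-D1 were not called (0.16 and 0.15).

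The gamma-activated site, a short element through which interferon gamma acts, was searched as TTCNNNGAA. It was in 29.6% of the promoters of the interferon list (8 of 27 with a promoter), against 9.55% of all promoters, 9.01% of loci called higher and 7.26% of loci called lower. Stretches are shown for 2 members with large rises.
Irf1: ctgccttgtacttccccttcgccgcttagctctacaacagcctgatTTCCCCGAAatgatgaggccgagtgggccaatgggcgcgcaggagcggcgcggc
Gbp7: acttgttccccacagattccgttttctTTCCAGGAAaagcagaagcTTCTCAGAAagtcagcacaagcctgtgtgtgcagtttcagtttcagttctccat
The Irf1 stretch is at chr11:53769878-53769977 on the plus strand, and the Gbp7 stretch, with 2 matches, at chr3:142530203-142530302 on the plus strand. Gbp7 was at 11.3, 11.8 and 14.3 FPKM in KIKO, against 0.383, 0.891 and 0.463 FPKM in KI (log2 difference 3.10 ± 0.16, adjusted p = 6.6e-05).

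Genes outside the lists with large differences carried other roles. Uchl1, a deubiquitinase best known in neurons, was at 11.2, 12.2 and 7.69 FPKM in KIKO, against 0.228, 0.198 and 0 FPKM in KI (log2 difference 3.30 ± 0.19, adjusted p = 8.6e-05), a call lost when transcript starts alone were summed. Zfp385a, a zinc finger protein that interacts with p53, was at 12.4, 14.9 and 6.08 FPKM in KIKO, against 0.928, 0.163 and 0 FPKM in KI (log2 difference 3.13 ± 0.35, adjusted p = 0.00062), and Cd7 at 27.8, 18.9 and 36.0 FPKM in KIKO, against 3.12, 1.96 and 3.36 FPKM in KI (log2 difference 2.88 ± 0.24, adjusted p = 0.00024). All 3 were low in every KI library. Impact, an inhibitor of the eIF2alpha kinase GCN2, rose by 3.05, and Crip2 by 2.99. The smallest p-values included Nckap1 of the WAVE complex (2.43), Ndrg1 (2.36), Vat1 (2.67), Anxa7 (2.22) and Tubb2a (2.33), all higher in KIKO with little spread in either group. Among genes that fell, Cdca7 was at 6.91, 7.11 and 5.77 FPKM in KIKO, against 32.6, 49.6 and 61.3 FPKM in KI (log2 difference -2.64 ± 0.22, adjusted p = 0.00021), and Cdca7l fell by 2.08. Galk1, the galactokinase, fell by 2.40, Tmem97, a sterol-regulated receptor, by 2.29 and Marcksl1 by 2.23. Ddx3y was higher by 3.05 (adjusted p = 0.0483), at 63.9, 76.9 and 39.2 FPKM in KIKO, against 17.7, 18.3 and 0 FPKM in KI. The 0 is that of KI library 3, which listed Xist, so the size of the difference rests in part on that library. The call was lost in 7 alternatives, among them those without any 1 KIKO library.

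The 3 KIKO libraries did not differ from KI to the same extent in every list. The first principal component, with 70.1% of the variance, set all KIKO libraries (scores -33.2 to -29.5) apart from all KI libraries (24.2 to 36.9). The second, with 12.3%, set KIKO library 2 (21.6) apart from KIKO library 3 (-21.8), with library 1 between them at 2.61. KIKO library 2 had the largest rises in p53 targets, the ATF4 list, the proteasome, heat shock and NRF2 lists, and KIKO library 3 the smallest. For p53 targets the median against the KI mean was 1.53, 1.66 and 1.06 in KIKO libraries 1, 2 and 3. For the interferon list the order was turned round, with 1.02, 0.79 and 1.22. Ribosome biogenesis stood at -0.85, -0.68 and -1.13 in KIKO, and the replication fork at -1.25, -1.27 and -1.28. Genes of naive T cells were at 0.19, -0.27 and 0.50, and integrins and homing receptors at 0.20, -0.58 and 0.40. Of the activated KIKO libraries, library 2 is also the one with the most Psmb5, S100a9 and natural killer cell markers. The part of these in its values was not tested. In naive KIKO libraries 1, 2 and 3, Psmb5 was at 1.98, 2.54 and 2.95 FPKM and S100a9 at 0.471, 110.2 and 0 FPKM. Within KI, library 1 had the lowest and library 3 the highest medians in the MCM list, -0.45 and 0.43.

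**Figure D4:**
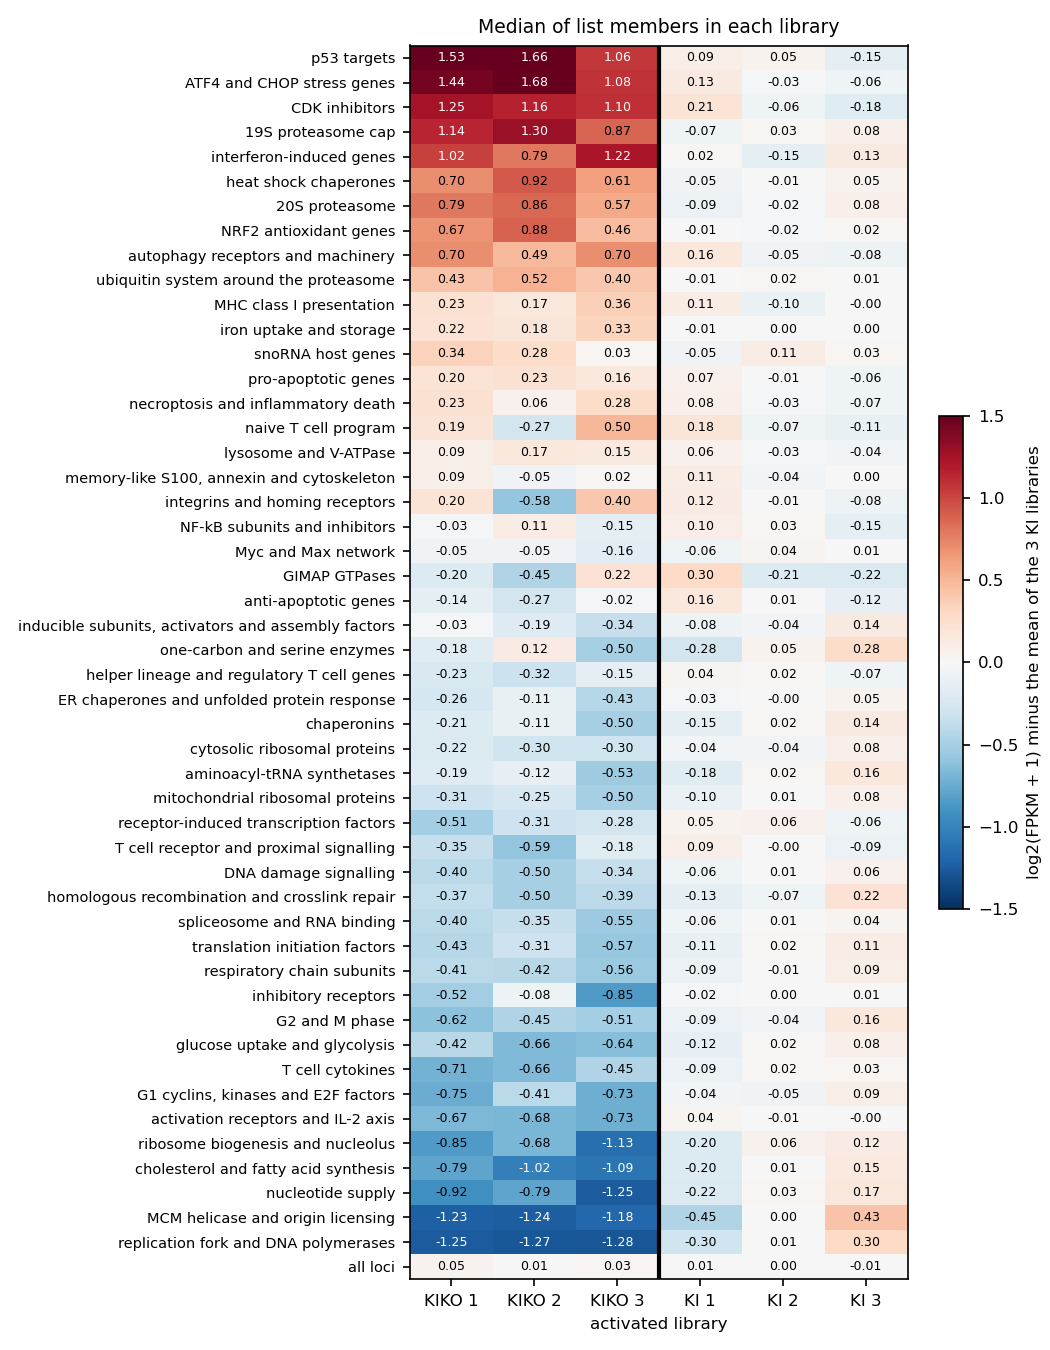
Median over the tested members of each list of log2(FPKM + 1) minus the mean of the 3 KI libraries, in each activated library, KIKO left of the black line and KI right of it. Lists run from p53 targets at the top (1.53, 1.66 and 1.06 in KIKO) to the replication fork at the bottom (-1.25, -1.27 and -1.28), all loci stand in the last row, and colours are full at 1.5 and beyond.

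Some genes differed more among KIKO libraries than between the groups. Cox20, an assembly factor of cytochrome oxidase, was at 1.50, 2.77 and 46.7 FPKM in KIKO, against 28.8, 33.6 and 29.6 FPKM in KI, so KIKO library 3 was above all KI libraries and the others far under them. Rnf157 was at 45.0, 1.24 and 0.427 FPKM in KIKO, against 3.22, 4.23 and 3.99 FPKM in KI, high in KIKO library 1 alone. Ptpn18 was at 113, 23.9 and 24.4 FPKM in KIKO, against 58.3, 56.6 and 77.6 FPKM in KI, again with KIKO library 1 above the rest. None of these 3 genes was called. Cox20 was called lower without KIKO library 3, and Rnf157 and Ptpn18 lower without KIKO library 1. Hnrnpa3, of an RNA-binding protein, was at 22.8, 166 and 21.2 FPKM in KIKO, against 242, 208 and 226 FPKM in KI, near KI in KIKO library 2 alone, and its call was lost without any 1 library but KIKO library 2. Rpl29, of a ribosomal protein, was at 102, 711 and 141 FPKM in KIKO, against 175, 879 and 1327 FPKM in KI, and it was called lower without KIKO library 2. Both genes have processed pseudogenes that can share reads.

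Levels in naive cells are set beside those in activated cells, with no test. Mcm5 was at 4.52 ± 0.177 FPKM in naive KIKO and 6.56 ± 0.230 FPKM in naive KI cells (SD, n = 3 each), and in activated cells at 7.76 ± 0.785 FPKM in KIKO and 66.4 ± 21.4 FPKM in KI. Ldha was at 79.1 ± 6.50 FPKM in naive KIKO and 126 ± 3.60 FPKM in naive KI cells, and in activated cells at 133 ± 19.5 FPKM in KIKO and 547 ± 76.0 FPKM in KI. Psmb5 was at 2.49 ± 0.485 FPKM in naive KIKO and 45.6 ± 0.977 FPKM in naive KI cells. Psma1 and Sqstm1 had higher levels in KIKO in naive cells too, with Psma1 at 103 ± 13 FPKM in naive KIKO and 39.2 ± 2.80 FPKM in naive KI cells. Cdkn1a was under 1 FPKM in both naive groups, at 0.403 ± 0.364 FPKM in KIKO and 0.132 ± 0.164 FPKM in KI. In naive cells Trib3 was at 14.9 ± 0.536 FPKM in KIKO and 17.2 ± 1.53 FPKM in KI, and in activated cells it was at 19.4 ± 4.90 FPKM in KIKO and 1.40 ± 0.374 FPKM in KI. Irf1 was at 33.6 ± 2.52 FPKM in naive KIKO and 38.7 ± 6.28 FPKM in naive KI cells. Mlkl was listed at 0 in the 3 naive KI libraries and at 3.47 ± 1.12 FPKM in naive KIKO.

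**Figure D5:**
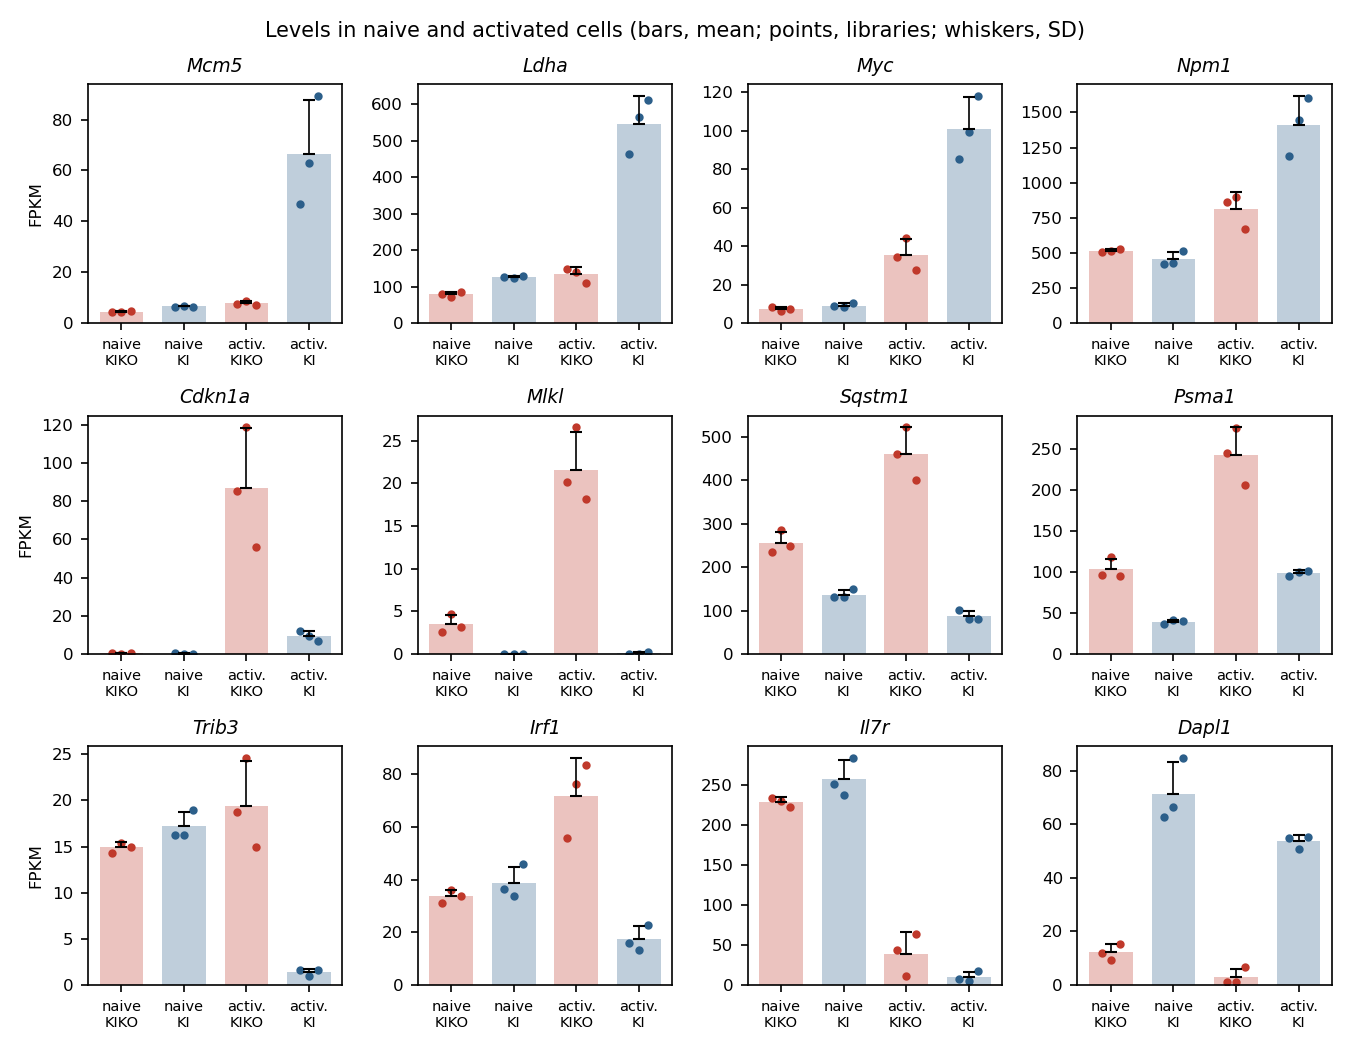
FPKM of 12 genes in naive KIKO, naive KI, activated KIKO and activated KI cells, with bars for means, points for the 3 libraries and whiskers for the SD. Mcm5, Ldha, Myc and Npm1 are highest in activated KI cells, and Cdkn1a, Mlkl, Sqstm1 and Psma1 in activated KIKO cells.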

How the data were processed

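Stranded poly(A) libraries were made from 15 ng of total RNA per sample, per the labels' protocols. The submitters' processing notes name FastQC 0.11.9, cutadapt 2.9 and HISAT2 2.2.0 and the builds GRCm39 and mm10, and the tool behind the FPKM is not given in these sources. The authors deposited FPKM values per transcript start, transcript end and splicing event, with GRCm39 coordinates and no read counts.

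Repeated events were dropped, and the FPKM of a locus were summed over starts and over ends, and its level was the larger sum or, if higher still, its top event. A locus that a file leaves out was set to 0, which is not silence. Loci of at least 1 FPKM in at least 3 of the 6 activated libraries were fitted as log2(FPKM + 1) with limma 3.58.1 (R 4.3.3, mean-variance trend, two-sided), with Benjamini-Hochberg adjustment over all 9152 loci, after a test on simulated data. No label says that replicates came from separate animals, so p-values measure only the spread between these samples, which may be partly technical. KI library 3 listed Xist and no Y-linked gene in activated and in naive cells, unlike KI libraries 1 and 2. The KI libraries were thus not all repeats of 1 sample. KIKO library 2 listed S100a9 in both states, at 92.8 FPKM in activated and 110.2 FPKM in naive cells. Whether a replicate number marks a shared source was not tested.

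Locus names were checked by exon and intron lengths against GENCODE M21, weighted by FPKM. A locus was renamed where a share of at least 0.7 matched another gene. The name in the files was kept where the check gave no answer, as for Ubb, Ctps2, Mcl1, Batf, Zfand2a, Psma2, Psmc2, Gins4 and Hnrnpa3. That weighting, and another estimator of array weights after the first did not converge, were chosen after seeing the data.

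Members, gene lists and the 7 promoter motifs, all reported, were chosen with earlier results of these data known. Matches to different motifs were counted separately and may overlap. Genes named were drawn from the 20 loci with the largest differences in each direction (at least 10 FPKM in a group, no overlap, checked name). In each list, up to 8 members of lowest p and any called against the majority were added. Further sources were the proteasome, MCM and p53 lists, the 10 loci with the smallest p and the 10 with the largest KIKO spread. Not every locus of these sets is named above. Among those left out are Mettl7a1 (3.7), Fam219a (2.94), Mcm2 (-2.14) and Cetn3 (-2.08), all called, and Malat1 and Rflnb, not called. Chosen after their values were seen were Asns, Atf3, Atf5, Atg3, Atg5, Atg7, Becn1, Cad, Casp9, Gpt2, Hsf1, Hspa5, Hspa8, Irf1, Nfe2l1, Nop56, Npm1, Pcna, Pola1, Pomp, Psmb10, Rb1cc1, Slc7a11, Srxn1, Timeless, Ubb and, under the filter, Rsad2, Isg15, Ifng, Chac1 and Ccl3. Promoters are from RefSeq (GRCm38.p6), and no coordinates were converted between builds.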

Additional observations from a re-analysis of the deposited data

How the results depend on the processing

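Of 3907 loci called, 1969 higher and 1938 lower, a test against a minimum log2 difference of 1 called 111, of which 76 were higher and 35 lower. An adjusted p under 0.01 called 2257, 1121 higher and 1136 lower. Under every other alternative the count stayed within 1.5 times, from 2782 without KI library 2 to 5178 with array weights. Leaving out 1 library gave 2782 to 3726 calls, and leaving out both KIKO library 2 and KI library 3, an alternative added after seeing the data, gave 2803. Rescaling to an equal sum gave 2608 higher and 1490 lower. Of 223 genes named and called, 195 kept direction and call under all 19 alternatives other than these 2 stricter thresholds, and 27 lost the call under at least 1. Of 36 genes named and not called, 21 were called under at least 1.

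With a replicate block the fit called 3473 loci, 1766 higher and 1707 lower. The deviations of the KIKO and KI libraries with the same replicate number correlated at -0.0253, 0.136 and -0.0866. They showed no common pairing by number. KIKO library 2 correlated best with KI library 2, but not every library correlated best with its own number. No label says that a number marks a shared day or batch, and these correlations cannot settle whether it does. The calls of Psma6 and Prpf6 were lost under the block.

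Signs turned as follows. Summing transcript starts alone gave 4.50 for Cd4 and -0.16 for Psmc2. Quantile normalization gave 0.08 for Psmd8 and 0.02 for Sem1, and an equal sum 0.04 for Psmd8. Array weights gave 0.32 for Ptpn18, and a pseudocount of 0.1 FPKM -0.29 for Rnf157. Without KIKO library 1 the difference was -1.42 for Rnf157 and -0.21 for Gapdh, without KIKO library 2 it was 0.05 for Psmb10, and without KIKO library 3 it was 0.05 for Cd69. With 1 library left out, the range was -1.42 to 1.08 for Rnf157, with 1.08 without KIKO library 3, -0.33 to 0.05 for Psmb10 and up to 0.37 for Rps27l. Without both KIKO library 2 and KI library 3 it was -0.43 for Cd69, 0.11 for Psmb10 and -0.01 for Rps27l. Apart from Cd4 and Psmc2, these genes were not called in the first place. The cause was not tested.

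FPKM hold no read numbers, so no counting error can be set on low levels, and loci near 1 FPKM are the least certain. With 3 libraries a group and 1 of them apart on each side, small differences rest on few libraries.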

Other observations

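Every numbered chromosome held calls in both directions, beside shares over all loci of 21.5% higher and 21.2% lower. On chromosome 14, which holds Psmb5, 75 of 378 loci were higher in KIKO and 104 lower. The share called lower was larger there than on any other chromosome, and the reason was not tested. On chromosome 11, which holds the most loci of this comparison, 178 of 791 were higher and 183 lower. On chromosome X, 48 of 283 were higher and 65 lower, and KI library 3, which listed Xist and no Y-linked gene, is in that count.

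Some members of the lists missed the filter of 1 FPKM in 3 libraries. Chac1, a target of ATF4 and CHOP that breaks down glutathione, was at 1.96, 2.80 and 0.900 FPKM in KIKO, against 0.418, 0 and 0.147 FPKM in KI. The chemokine gene Ccl3 was at 0.444, 3.19 and 1.43 FPKM in KIKO, against 0.469, 0.664 and 0.687 FPKM in KI, highest in KIKO library 2, which also listed markers of myeloid and natural killer cells, whose part in it was not tested. Neither gene was tested here.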
